A study of Mus musculus with 7 samples.

Results

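The IL-1 receptor family gene cluster holds 6 genes that run in the same direction over a stretch of mouse chromosome 1. In the GRCm38/mm10 window from 40000000 to 40700000 they follow in the order Il1r2, Il1r1, Il1rl2, Il1rl1, Il18r1 and Il18rap. Il1r1 encodes the signalling receptor for IL-1, and Il1r2 encodes a decoy that binds IL-1 without signalling. Il1rl2 encodes the receptor chain for IL-36 cytokines, and Il1rl1 encodes ST2, the receptor chain for the alarmin IL-33. Il18r1 and Il18rap encode the binding and the accessory chain of the IL-18 receptor. ST2 is a known surface marker of Th2 cells, and the IL-18 receptor is known from Th1 cells, where IL-18 acts together with IL-12 to raise IFNγ production. All of these receptors except the decoy signal through the adaptor MyD88 and IRAK kinases.

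Chromatin accessibility of the cluster was measured by ATAC-seq, in which a transposase cuts and tags open DNA, so that insertions per region measure how open the region is. The series held 7 libraries of 50000 CD4+ T cells each, all sorted on day 8 after C57BL/6 reporter mice were given 500 L3 larvae of the helminth Nippostrongylus brasiliensis. The LN IL-4+ (n = 2, mediastinal lymph node) and lung IL-4+ (n = 3) libraries came from GFP+ cells of IL-4 4get mice, and the lung IFNγ+ libraries (n = 2) from YFP+ cells of IFNγ GREAT mice. GFP and YFP mark cells that transcribe the reporter locus, which is not the same as cells secreting the cytokine, and uninfected or reporter-negative cells were not analysed here. By the study's account the libraries came from mice of a single experiment, and whether any lymph node and lung library came from the same animal is not given in the sources used here. The lymph node below stands for LN IL-4+ cells, as no lymph node IFNγ+ library was held. Lung IFNγ+ and LN IL-4+ cells thus differed in tissue, sorted cytokine and reporter strain, which cannot be told apart. By the study's methods lungs were digested with enzymes and lymph nodes dissociated mechanically, so preparation also goes with tissue. The study describes most lymph node IL-4+ cells around this time as Tfh and those of the lung as Th2.

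Of 113820 regions in the table, 111 lay in the window, and 70 overlapped 1 of the 6 genes or the 10 kb on either side of it. These 70 regions are the members described here. Il1r1 had 20, Il1r2 8, Il1rl2 6, Il1rl1 23, Il18r1 14 and Il18rap 8, counting 2 regions shared by Il1r1 and Il1rl2 and 7 shared by Il1rl1 and Il18r1. The members were up to 2267 bp long, with a median of 554 bp, and covered 48.8 kb together. By GENCODE annotation 16 lay within 1 kb of a transcription start of 1 of the 6 genes, 5 overlapped another exon, 42 lay in introns and 7 between genes. All 70 entered every fit, since no filter on low values was applied, and 61 had at least 10 insertions in every library. A mean density of 5 (insertions per kb per 1000000), taken as accessible, was reached by 49 members in at least 1 population, by 17 in LN IL-4+, 36 in lung IL-4+ and 32 in lung IFNγ+ cells, and 21 members did not reach it in any. The share of all regions at this level in each population was not counted. Their median density, on the log2 scale, was between 2.08 and 2.22 in every library. The other 41 regions of the window belonged to no listed gene, and 16 of them lay between Il1rl2 and Il1rl1.

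Values are the deposited normalized log2 insertions per kb of region and per 1000000, called log2 density here. Their sorted values coincide between libraries once region length is removed, so they are not plain counts scaled by depth, least of all where insertions are few. Sums over the regions of a gene are given as IPM, the normalized insertions falling in them per 1000000. Since they grow with the length covered they are compared between libraries and not between genes. P-values from limma, a linear model, set a difference against the spread between libraries, estimated from all 7 libraries together. Permutation p-values give the share of regroupings of the libraries with a difference at least as large. Both cover these libraries only. Rebuilt depth was between 14005923 and 91681969 insertions per library. The spread of insertions over regions divided the libraries across the populations: interquartile ranges were 1.64 to 1.73 log2 units in LN IL-4+ replicate 1 and in lung IL-4+ replicates 2 and 3, and 2.87 to 3.05 in the other 4 libraries, which included both of lung IFNγ+ cells. The CD4+ T cell genes Cd3e, Cd3d, Cd3g, Cd4 and Cd5 were accessible in every library, with 557 to 890.1 IPM in their loci together. The loci of Il4 and Ifng, which the reporters mark, had 149 and 22.6 IPM in lung IL-4+ cells and 47.0 and 71.6 in lung IFNγ+ cells (mean of n = 3 and n = 2). In bulk libraries a higher value in a region can come from more cells with the region open or from a more open region in each cell, and these cannot be told apart.

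The sequences of the members that changed the most are given first, because the results below return to them. They were read from the RefSeq GRCm38.p6 genome on the plus strand, which is the strand of all 6 genes. Capitals mark matches on either strand to 10 short motifs, which were AGATAA for GATA factors, TGANTCA for bZIP, AACCACA for RUNX, AGGTGTG for T-box, GGGANTTCC for NFkB, TGGAAAA for NFAT, ATCAAAG for TCF, TTCNNNGAA for STAT, the same with a spacer longer by 1 base for STAT6, and CCGGAAG for ETS. The first 3 sequences are central 300 bases of regions at Il1rl1. They lie 2.2 kb upstream of its start (chr1:40427251-40427550, the highest mean density of the regions nearest to the gene), 4.0 kb upstream (chr1:40425399-40425698, the smallest p of the members between the lung populations) and 18.9 kb into it (chr1:40448369-40448668, the largest rise of lung IL-4+ over LN IL-4+ cells).
Il1rl1, 2.2 kb upstream: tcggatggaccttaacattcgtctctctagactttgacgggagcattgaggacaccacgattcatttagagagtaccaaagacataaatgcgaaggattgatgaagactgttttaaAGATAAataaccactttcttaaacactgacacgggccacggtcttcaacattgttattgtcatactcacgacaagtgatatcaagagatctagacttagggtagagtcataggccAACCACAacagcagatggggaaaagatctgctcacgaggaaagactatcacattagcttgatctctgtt
Il1rl1, 4.0 kb upstream: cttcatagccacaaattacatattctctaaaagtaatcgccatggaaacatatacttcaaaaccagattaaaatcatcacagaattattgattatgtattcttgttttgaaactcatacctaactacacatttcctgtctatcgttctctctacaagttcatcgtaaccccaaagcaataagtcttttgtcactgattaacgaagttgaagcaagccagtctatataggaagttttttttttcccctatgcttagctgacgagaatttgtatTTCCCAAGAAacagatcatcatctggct
Il1rl1, intron: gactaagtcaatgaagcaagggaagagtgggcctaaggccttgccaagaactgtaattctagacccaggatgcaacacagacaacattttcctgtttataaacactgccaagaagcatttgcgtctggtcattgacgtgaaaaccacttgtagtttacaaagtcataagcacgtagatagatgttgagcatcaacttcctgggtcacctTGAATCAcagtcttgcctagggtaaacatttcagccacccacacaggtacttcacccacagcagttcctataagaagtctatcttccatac
The upstream stretch at 2.2 kb held 1 GATA match and 1 RUNX match. The stretch at 4.0 kb held 1 STAT6 match, and the intronic stretch held 1 bZIP match.

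The next 3 are central 300 bases of the most changed regions of the IL-18 receptor genes. They lie in Il18r1 (chr1:40467325-40467624) and in introns of Il18rap (chr1:40522737-40523036 and chr1:40529363-40529662).
Il18r1, intron: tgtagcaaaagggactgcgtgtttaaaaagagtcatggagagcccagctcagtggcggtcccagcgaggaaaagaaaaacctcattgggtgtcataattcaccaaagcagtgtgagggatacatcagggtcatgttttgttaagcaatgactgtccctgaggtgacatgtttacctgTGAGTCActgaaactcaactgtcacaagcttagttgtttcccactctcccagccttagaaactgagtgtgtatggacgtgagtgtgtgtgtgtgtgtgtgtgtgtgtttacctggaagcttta
Il18rap, intron, highest in lung IFNγ+ cells: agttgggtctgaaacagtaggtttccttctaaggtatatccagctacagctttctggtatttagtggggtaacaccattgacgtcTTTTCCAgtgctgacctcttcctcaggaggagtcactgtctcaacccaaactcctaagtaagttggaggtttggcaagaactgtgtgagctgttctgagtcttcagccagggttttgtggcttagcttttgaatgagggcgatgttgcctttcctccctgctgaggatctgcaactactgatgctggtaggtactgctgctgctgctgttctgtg
Il18rap, intron, highest in lung IL-4+ cells: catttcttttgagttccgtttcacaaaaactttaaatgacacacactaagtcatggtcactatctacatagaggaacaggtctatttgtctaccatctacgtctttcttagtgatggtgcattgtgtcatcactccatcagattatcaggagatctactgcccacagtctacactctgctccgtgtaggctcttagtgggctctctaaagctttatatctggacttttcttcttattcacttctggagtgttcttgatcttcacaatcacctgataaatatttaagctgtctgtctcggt
The Il18r1 stretch held 1 bZIP match and the first Il18rap stretch 1 NFAT match, while the second Il18rap stretch held 0 matches to the 10 motifs. The 250 bases before the starts of Il1rl1 (chr1:40429320-40429569) and Il18rap (chr1:40515112-40515361) are shown as well, since both promoter regions gained accessibility. All 6 genes had an entry in the RefSeq promoter table.
Il1rl1 promoter: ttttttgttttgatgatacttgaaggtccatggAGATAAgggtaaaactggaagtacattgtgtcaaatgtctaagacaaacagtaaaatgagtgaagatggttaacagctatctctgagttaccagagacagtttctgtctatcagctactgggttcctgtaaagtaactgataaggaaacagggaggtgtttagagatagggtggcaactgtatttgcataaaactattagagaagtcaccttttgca
Il18rap promoter: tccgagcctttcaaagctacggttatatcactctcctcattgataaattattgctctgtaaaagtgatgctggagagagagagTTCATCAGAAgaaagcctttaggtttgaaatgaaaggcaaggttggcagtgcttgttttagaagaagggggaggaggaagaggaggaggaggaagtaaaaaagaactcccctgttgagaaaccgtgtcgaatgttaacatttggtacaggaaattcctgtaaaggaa
The Il1rl1 promoter held 1 GATA match and the Il18rap promoter 1 STAT6 match.

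Both lung populations were more accessible than LN IL-4+ cells over the stretch from Il1rl1 to Il18rap, where most of the called regions lay. Of the 70 members, 16 (22.9%) were called higher in lung IL-4+ than in LN IL-4+ cells and 0 were called lower, against 1.05% and 0.695% of all 113820 regions. In lung IFNγ+ cells 16 (22.9%) were called higher than in LN IL-4+ cells and 0 lower, against 2.17% and 0.862% of all regions. Calls needed an adjusted p below 0.05 in limma, fitted over all regions with Benjamini-Hochberg adjustment, and a fold change of at least 3. At an unadjusted p below 0.05, 1 and 8 members were lower in the respective contrasts, beside 7.38% and 7.81% of all regions, and voom on rebuilt counts called 0 and 3 as lower. The median log2 difference over the 70 members was 0.92 in lung IL-4+ and 0.82 in lung IFNγ+ cells, beside -0.03 and -0.03 over all regions.

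The calls lay at 4 of the 6 genes. Against LN IL-4+ cells, lung IL-4+ cells had 11 called regions of 23 at Il1rl1, 3 of 8 at Il18rap, 2 of 6 at Il1rl2 and 1 of 14 at Il18r1. Lung IFNγ+ cells had 9 of 23 at Il1rl1, 6 of 14 at Il18r1, 5 of 8 at Il18rap and 0 of 6 at Il1rl2. A called region shared by Il1rl1 and Il18r1 is counted at both genes. Of the 17 Il1rl1 regions that were nearest to that gene, 10 were called in lung IL-4+ and 5 in lung IFNγ+ cells. Il1r2 and Il1r1 had 0 called regions in any contrast. The 2 sets of calls share the same LN IL-4+ libraries.

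The number of calls depended on single libraries. All 7 libraries shared 1 estimate of the spread between libraries, for regions and locus sums alike. Leaving out a library of the population outside a contrast therefore changes its p-values but not its log2 differences. Lung IL-4+ calls fell from 16 to 5 without lung IL-4+ replicate 2, to 9 without lung IL-4+ replicate 3, to 9 without lung IFNγ+ replicate 1 and to 7 without lung IFNγ+ replicate 2. Lung IFNγ+ calls fell from 16 to 10 without LN IL-4+ replicate 1, to 7 without lung IL-4+ replicate 2 and to 1 without either lung IFNγ+ replicate.

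**Figure D1:**
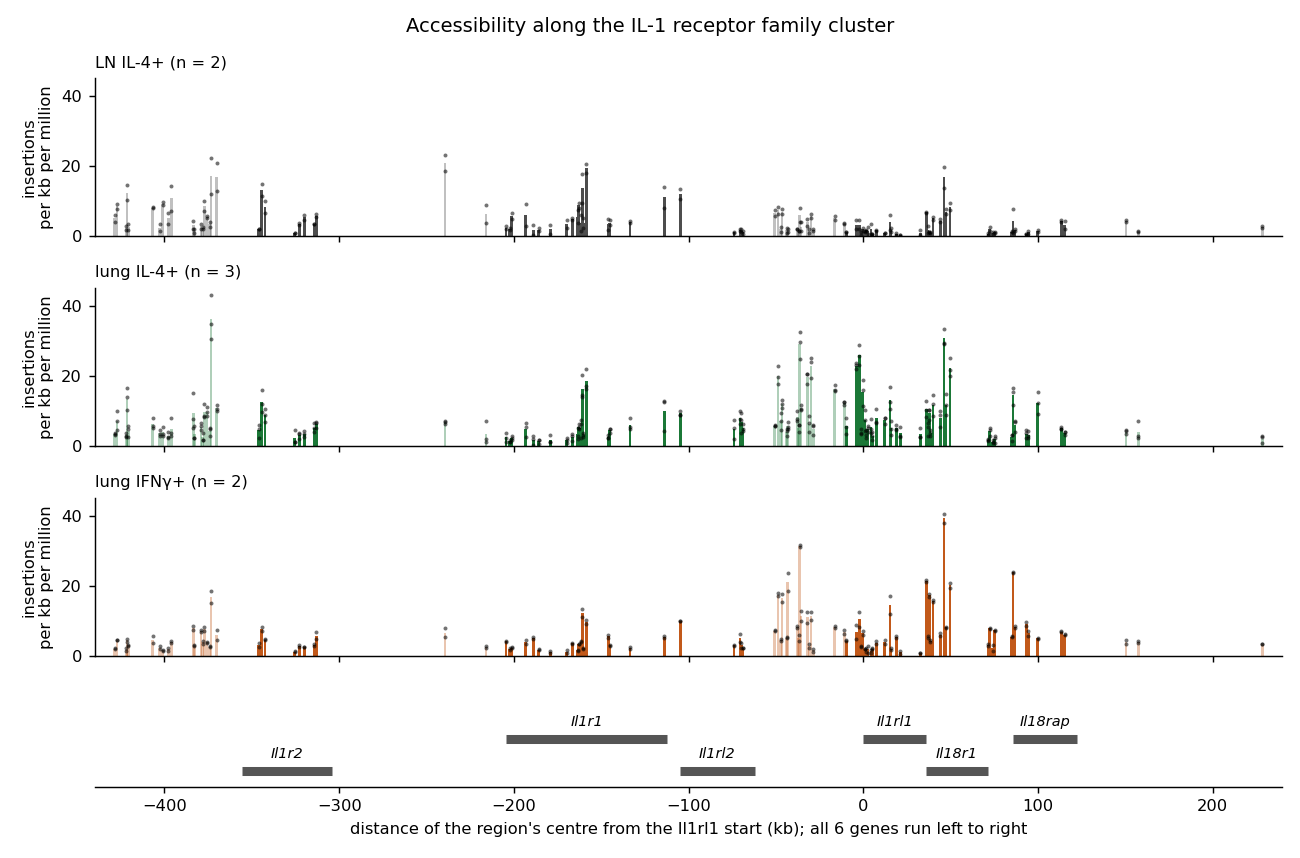
Mean density (bars, insertions per kb per 1000000) of every region of the window in each population, with each library as a black point. The horizontal axis is the distance of the region's centre from the Il1rl1 start in kb, dark bars are the 70 members and pale bars the other regions of the window. Of the 23 Il1rl1 regions, all stand higher in lung IL-4+ cells than in the lymph node and 21 do so in lung IFNγ+ cells.

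**Figure D2:**
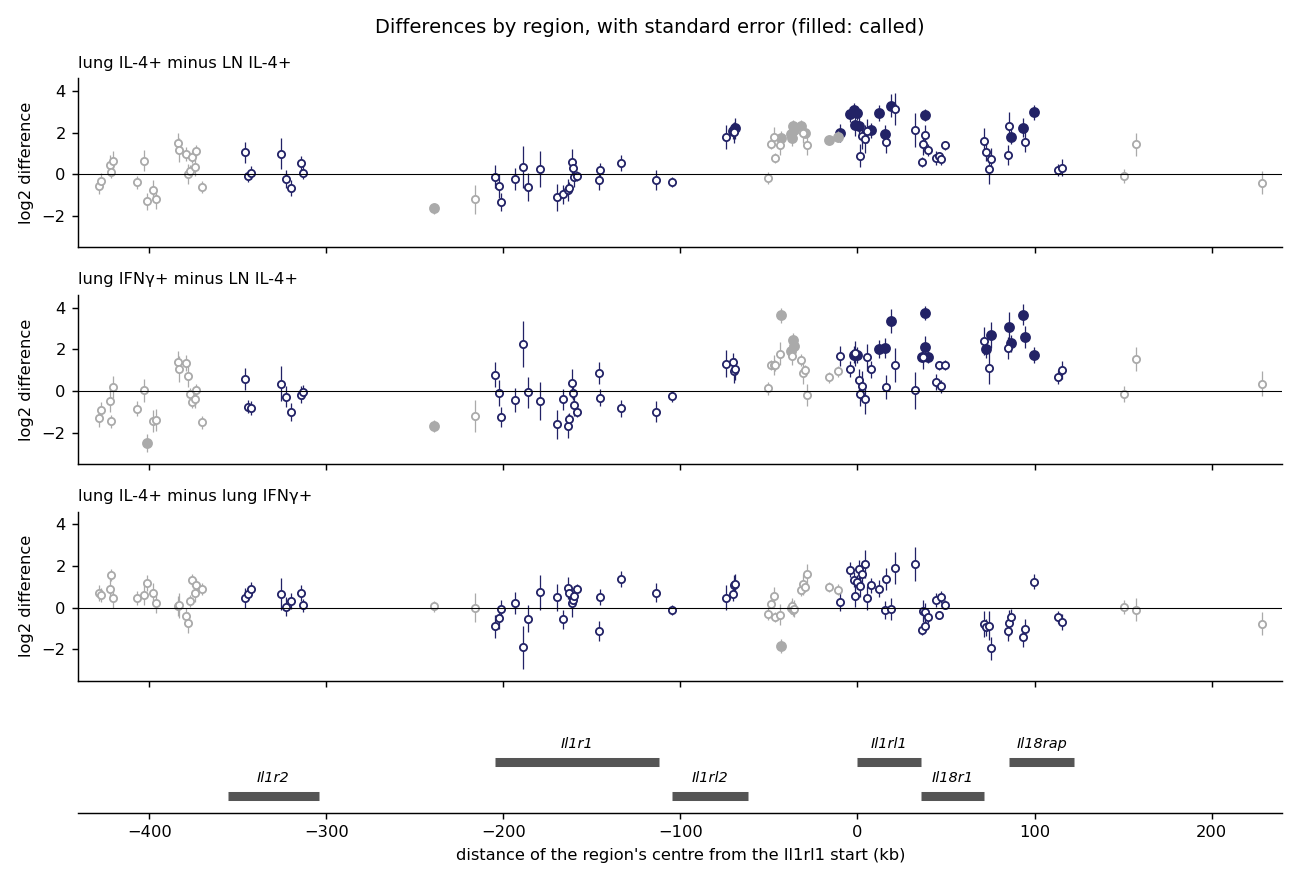
Log2 difference between populations for each region of the window, with its standard error from limma, along the distance from the Il1rl1 start in kb. Dark points are members, grey points are other regions, and filled points are called. Of the members, 16 are filled in each of the upper panels and 0 in the lowest panel.

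Il1rl1, the IL-33 receptor gene, was more accessible in both lung populations than in LN IL-4+ cells. At all 23 of its regions every lung IL-4+ library lay above both LN IL-4+ libraries, beside 13.6% of all regions. In lung IFNγ+ cells 18 of 23 lay wholly above the LN IL-4+ libraries, and 12 of the 17 nearest to Il1rl1, beside 26.5% of all regions. Summed over its regions, the locus held 45.5 and 39.9 IPM in LN IL-4+ cells, 116, 142 and 163 in lung IL-4+ cells and 104 and 111 in lung IFNγ+ cells. The lymph node libraries were the lowest, the lung IFNγ+ libraries stood below every lung IL-4+ library, and no populations overlapped. Of the 23 regions, 6 were nearer to Il18r1, and without them the sums were 18.7 and 15.6, then 75.6, 85.4 and 97.0, then 36.2 and 43.6 IPM. On those 17 regions lung IL-4+ cells were 5.02-fold and lung IFNγ+ cells 2.33-fold above LN IL-4+ cells, as a description with no test. Sums over all regions of a gene were tested in limma over all 17021 protein-coding genes with a region.

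The Il1rl1 sum was 3.26-fold higher in lung IL-4+ than in LN IL-4+ cells (log2 difference 1.71, SE 0.16, limma adjusted p = 0.00896) and ranked 29 of 17021 genes from the highest difference. In lung IFNγ+ cells it was 2.51-fold higher than in LN IL-4+ cells (log2 difference 1.33, SE 0.17, limma adjusted p = 0.0145). Among all genes, 0.664% were called higher and 0.417% lower in lung IL-4+ cells, and 1.34% and 0.811% in lung IFNγ+ cells. The lung IL-4+ call was lost without lung IL-4+ replicate 2 (limma adjusted p = 0.116), lung IL-4+ replicate 3 (0.0532), lung IFNγ+ replicate 1 (0.0565) or lung IFNγ+ replicate 2 (0.0571), with log2 differences between 1.59 and 1.71. The lung IFNγ+ call was lost without lung IL-4+ replicate 2 (limma adjusted p = 0.0584), lung IFNγ+ replicate 1 (0.212) or lung IFNγ+ replicate 2 (0.195), with log2 differences between 1.28 and 1.38.

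The region 2.2 kb upstream of the Il1rl1 start (chr1:40427115-40427687) had the highest mean density of the 17 regions nearest to the gene. Its log2 density was 0.99 and 2.22 in LN IL-4+, 4.69, 4.54 and 4.85 in lung IL-4+ and 3.06 and 3.65 in lung IFNγ+ cells. It rose 8.49-fold in lung IL-4+ cells (log2 difference 3.09, SE 0.36, limma adjusted p = 0.00384) and 3.36-fold in lung IFNγ+ cells (1.75, SE 0.39, limma adjusted p = 0.0339). The lung IL-4+ libraries lay above both lung IFNγ+ libraries, and these above both LN IL-4+ libraries. The region 4.0 kb upstream (chr1:40425307-40425791) had 1.1 and 2.19 in LN IL-4+, 4.56, 4.54 and 4.47 in lung IL-4+ and 2.28 and 3.14 in lung IFNγ+ cells. It rose 7.35-fold in lung IL-4+ cells (limma adjusted p = 0.00475), and its log2 difference of 1.07 in lung IFNγ+ cells did not pass the test (limma adjusted p = 0.181).

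The promoter region of Il1rl1 (chr1:40428883-40429664) spans the distal, first annotated start at 40429570. Its log2 density was 0.62 and 1.34 in LN IL-4+, 3.51, 4.00 and 4.25 in lung IL-4+ and 2.55 and 2.84 in lung IFNγ+ cells. The 3 populations followed each other without overlap, and both lung populations were called higher than LN IL-4+ cells, by 7.66-fold (limma adjusted p = 0.00393) and 3.28-fold (limma adjusted p = 0.0312). The start at 40436589 also lay near a region (chr1:40436609-40437450), which was called 4.32-fold higher in lung IL-4+ cells (limma adjusted p = 0.0172). The gene is known to have a second, downstream promoter, and the annotated starts at 40439627, 40439776 and 40440628 had 0 regions within 1 kb in any population.

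Inside the gene, the intronic region at 18.9 kb (chr1:40448290-40448748) had log2 densities of -1.72 and -0.12 in LN IL-4+, 2.2, 2.33 and 2.61 in lung IL-4+ and 2.35 and 2.52 in lung IFNγ+ cells. It had the largest rise over LN IL-4+ cells of the members called in lung IL-4+ cells, 9.85-fold (limma adjusted p = 0.0121), and rose 10.2-fold in lung IFNγ+ cells (limma adjusted p = 0.0120). The lung libraries of both reporters overlapped there, unlike at the upstream regions. It rested on 13 rebuilt insertions in each LN IL-4+ library, which the normalization set at -1.72 and -0.12, and on 58 to 190 in the lung libraries. The neighbouring intronic region at 15.3 kb (chr1:40444675-40445128) likewise rose in both, 3.80-fold (limma adjusted p = 0.0453) and 4.16-fold (limma adjusted p = 0.0407). The region at 12.4 kb (chr1:40441722-40442169) rose 7.69-fold (limma adjusted p = 0.00586) and 4.09-fold (limma adjusted p = 0.0271).

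How far these calls held differed between regions. The promoter region and the regions 2.2 kb and 4.0 kb upstream were called higher in lung IL-4+ than in LN IL-4+ cells under 16 of 17 alternative fits, the intronic region at 18.9 kb under 13 and that at 15.3 kb under 7. Against LN IL-4+ cells the promoter region was called in lung IFNγ+ cells under 8 of 17, the region at 2.2 kb under 6 and the region at 15.3 kb under 9.

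Cells of other types that express Il1rl1 were followed by their marker loci. The Treg genes Foxp3, Ikzf2 and Il2ra had 485 to 521 IPM together in LN IL-4+, 630 to 744 in lung IL-4+ and 606 to 641 in lung IFNγ+ libraries, with 3 of 3 markers present. From LN IL-4+ to lung IL-4+ cells the mean of Il2ra went from 144 to 304 IPM and was called higher (limma adjusted p = 0.0208). Foxp3 went from 111 to 153 (limma adjusted p = 0.209) and Ikzf2 from 248 to 228 (limma adjusted p = 0.769), and neither was called. The mast cell and basophil genes Kit, Cpa3, Ms4a2 and Mcpt8 had 19.6 to 24.5, 27.6 to 31.1 and 33.2 to 36.2, with 3 of 4 markers holding a region. No marker with a region was at 0, and the part of these cells in the Il1rl1 result was not tested.

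**Figure D3:**
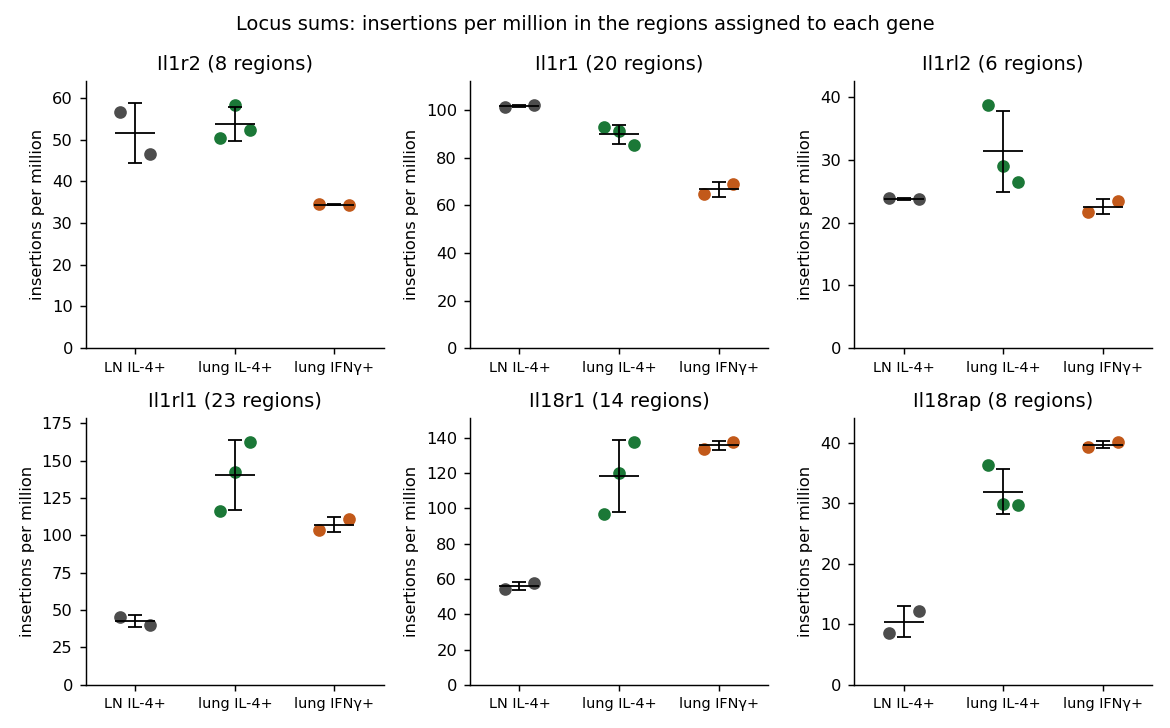
IPM in the regions assigned to each of the 6 genes, as 1 point per library with the mean and SD of each population (n = 2, 3 and 2). The lymph node libraries are the lowest at Il1rl1, Il18r1 and Il18rap, and the lung IFNγ+ libraries are the lowest at Il1r2, Il1r1 and Il1rl2.

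Il18r1, the binding chain of the IL-18 receptor, starts just behind the end of Il1rl1 and was more accessible in both lung populations. Its sum was 54.4 and 57.5 IPM in LN IL-4+, 96.9, 120.0 and 137 in lung IL-4+ and 134 and 138 in lung IFNγ+ cells. The lung populations overlapped and both lay above the lymph node. The sum was 2.09-fold higher in lung IL-4+ cells (log2 difference 1.06, SE 0.15, limma adjusted p = 0.0286) and 2.43-fold higher in lung IFNγ+ cells (1.28, SE 0.17, limma adjusted p = 0.0146). Of its 14 regions, 7 were also assigned to Il1rl1.

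The lung IL-4+ call at Il18r1 was lost without LN IL-4+ replicate 1 (limma adjusted p = 0.0571), lung IL-4+ replicate 2 (0.176), lung IL-4+ replicate 3 (0.115), lung IFNγ+ replicate 1 (0.107) or lung IFNγ+ replicate 2 (0.107), with log2 differences between 0.95 and 1.06. The lung IFNγ+ call was lost without lung IL-4+ replicate 2 (limma adjusted p = 0.0584), lung IFNγ+ replicate 1 (0.226) or lung IFNγ+ replicate 2 (0.195), with differences between 1.26 and 1.30.

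Its promoter region (chr1:40465399-40466064) had log2 densities of 2.75 and 2.8 in LN IL-4+, 3.05, 3.37 and 3.70 in lung IL-4+ and 4.44 and 4.40 in lung IFNγ+ cells. It rose 3.14-fold in lung IFNγ+ cells (log2 difference 1.65, SE 0.27, limma adjusted p = 0.00987). The 1.52-fold difference of lung IL-4+ cells was not called (limma adjusted p = 0.264). LN IL-4+ cells were the lowest here and at the Il1rl1 promoter, while the lung populations stood in opposite order, with lung IL-4+ cells the highest at Il1rl1, and in both places the lung libraries of the 2 reporters did not overlap.

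In the intron behind that promoter (chr1:40467239-40467711), log2 density was 0.29 and 0.44 in LN IL-4+, 3.37, 3.37 and 2.91 in lung IL-4+ and 4.14 and 4.08 in lung IFNγ+ cells. All lung libraries stood well above the lymph node, 13.4-fold in lung IFNγ+ cells (log2 difference 3.75, SE 0.32, limma adjusted p = 0.000803) and 7.23-fold in lung IL-4+ cells (2.85, SE 0.29, limma adjusted p = 0.00274). It was the most changed member in lung IFNγ+ cells and was called there under all 17 alternative fits and in lung IL-4+ cells under 16. The most accessible region of the gene (chr1:40475541-40476132), also intronic, was open in all populations, with 3.79 and 4.31, then 4.88, 4.87 and 5.06, then 5.24 and 5.34. It differed by 1.85-fold (limma adjusted p = 0.0413) and 2.37-fold (limma adjusted p = 0.0123), under the fold of 3 that calls needed.

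Behind the Il18r1 gene, the region at chr1:40504567-40505006 was called in lung IFNγ+ cells alone, with 0.46 and -0.06 in LN IL-4+, 1.24, -0.01 and 1.54 in lung IL-4+ and 2.91 and 2.82 in lung IFNγ+ cells. It rose 6.37-fold over LN IL-4+ cells there (limma adjusted p = 0.0391). The log2 difference of lung IL-4+ from LN IL-4+ cells was 0.72 (SE 0.56, limma adjusted p = 0.601).

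Il18rap, the accessory chain of the IL-18 receptor, was low in LN IL-4+ cells and more accessible in both lung populations. Its sum was 8.59 and 12.3 IPM in LN IL-4+, 36.3, 29.9 and 29.7 in lung IL-4+ and 39.3 and 40.2 in lung IFNγ+ cells, and no populations overlapped. It was 3.10-fold higher in lung IL-4+ cells (log2 difference 1.63, SE 0.20, limma adjusted p = 0.0172) and 3.87-fold higher in lung IFNγ+ cells (1.95, SE 0.22, limma adjusted p = 0.0105), which ranked 42 and 110 of 17021 genes. Of its 8 regions, 0 reached a mean density of 5 in LN IL-4+ cells, 4 in lung IL-4+ and 8 in lung IFNγ+ cells.

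The lung IL-4+ call at Il18rap was lost without lung IL-4+ replicate 2 (limma adjusted p = 0.142), lung IL-4+ replicate 3 (0.0923), lung IFNγ+ replicate 1 (0.0836) or lung IFNγ+ replicate 2 (0.0819). The lung IFNγ+ call was lost without lung IL-4+ replicate 2 (limma adjusted p = 0.0502), lung IFNγ+ replicate 1 (0.192) or lung IFNγ+ replicate 2 (0.134).

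The Il18rap promoter region (chr1:40515147-40515617) was its most accessible, with log2 densities of 0.04 and 2.99 in LN IL-4+, 4.04, 3.94 and 3.55 in lung IL-4+ and 4.57 and 4.59 in lung IFNγ+ cells. The lymph node libraries were further apart than the lung libraries were from each other. It rose 8.38-fold in lung IFNγ+ cells (limma adjusted p = 0.0369), and the 5.03-fold difference in lung IL-4+ cells was not called (limma adjusted p = 0.0859).

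Regions within Il18rap differed in which lung population was higher. The intronic region at chr1:40522672-40523102 had -0.54 and -0.41 in LN IL-4+, 1.19, 2.18 and 1.89 in lung IL-4+ and 3.08 and 3.29 in lung IFNγ+ cells. It rose 12.6-fold in lung IFNγ+ cells (limma adjusted p = 0.00442) and 4.70-fold in lung IL-4+ cells (limma adjusted p = 0.0290), called under 14 and 7 of 17 alternative fits. A few kb further, the region at chr1:40529079-40529947 had 0.98 and 0.26 in LN IL-4+, 3.96, 3.62 and 3.18 in lung IL-4+ and 2.28 and 2.40 in lung IFNγ+ cells. It rose 7.83-fold in lung IL-4+ cells (limma adjusted p = 0.00446) and 3.30-fold in lung IFNγ+ cells (limma adjusted p = 0.0396). It was the 1 of 8 Il18rap regions where every lung IL-4+ library lay above both lung IFNγ+ libraries, while 7 lay below.

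NK and myeloid cells can carry the IL-18 receptor and were gated out by NK1.1, CD11b and CD11c. The NK gene Klrb1c had 63.9 to 67.3 IPM in LN IL-4+, 69.0 to 72.1 in lung IL-4+ and 110 to 113 in lung IFNγ+ libraries, and Ncr1 held no region. The myeloid genes Itgam, Itgax and Csf1r had 20.2 to 21.8, 23.5 to 27.1 and 56.8 to 65.6 together, with Itgam and Itgax called higher in lung IFNγ+ cells than in those of the lymph node, and Lyz2 held no region. Activated T cells can also express some of these genes, and the part of other cells in the Il18r1 and Il18rap results was not tested.

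The lung populations were then compared with each other. Of the 70 members, 0 were called in either direction by limma, beside 0.108% of all regions higher and 0.387% lower in lung IL-4+ cells, while 18 were higher and 7 lower at an unadjusted p below 0.05, which 6.36% and 8.45% of all regions met. Voom on rebuilt counts called 3 as higher and 0 as lower. Of the 6 locus sums, 0 passed, beside 0% of protein-coding genes higher and 0.0529% lower, and 4 were higher and 0 lower at an unadjusted p below 0.05, beside 5.69% and 9.24% of genes. The sum at Il1rl1 was 1.30-fold higher in lung IL-4+ cells (log2 difference 0.38, SE 0.16, limma adjusted p = 0.332), and over the 17 regions nearest to the gene it was 2.15-fold higher, with no test by limma. The sums at Il18r1 and Il18rap differed by -0.21 (SE 0.15, adjusted p = 0.442) and -0.32 (SE 0.20, adjusted p = 0.396) on the log2 scale in limma.

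From Il1rl1 to Il18rap the direction of the differences nevertheless changed with the gene. When each region from Il1rl1 to Il18rap was given to its nearest gene, 17 belonged to Il1rl1 and 21 to Il18r1 or Il18rap. All lung IL-4+ libraries lay above both lung IFNγ+ libraries at 13 of the 17 Il1rl1 regions (76.5%) and below at 0. At Il18r1 they lay above at 1 of 13 and below at 7 (53.8%), and at Il18rap above at 1 of 8 and below at 7 (87.5%). Of all regions, 19.4% lay above and 21.2% below. Higher values in lung IL-4+ cells were not particular to Il1rl1, where the log2 sum differed by 0.38. At Il1r2, Il1r1 and Il1rl2 it differed by 0.64, 0.43 and 0.46 (limma adjusted p = 0.161, 0.1865 and 0.332). Of the 13 regions at the flanking genes, 7 lay above and 0 below. Neighbouring regions were read in the same libraries and are not replicates. The 4.0 kb upstream region of Il1rl1 had the smallest p of the members between the lung populations, with lung IL-4+ cells 3.51-fold higher (log2 difference 1.81, SE 0.36, limma adjusted p = 0.0588), and it was called under 7 of 17 alternative fits.

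The ratio of these sides put this in 1 value per library. The Il1rl1 regions summed to 18.7 and 15.6 IPM in LN IL-4+, 75.6, 85.4 and 97.0 in lung IL-4+ and 36.2 and 43.6 in lung IFNγ+ cells. The Il18r1 and Il18rap regions summed to 62.2 and 69.7, then 132, 148 and 166, then 173 and 177. The log2 ratio of the first to the second was -1.74 and -2.16 in LN IL-4+ cells, -0.80, -0.79 and -0.78 in lung IL-4+ cells and -2.25 and -2.02 in lung IFNγ+ cells. It was -1.95 ± 0.30 (SD, n = 2), -0.79 ± 0.01 (n = 3) and -2.14 ± 0.16 (n = 2). The 3 lung IL-4+ libraries nearly coincided and stood above all others.

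The ratio differed by 1.35 between lung IL-4+ and lung IFNγ+ cells and by 1.16 between lung IL-4+ and LN IL-4+ cells, with p = 0.1 each in an exact two-sided permutation test, the smallest that 3 against 2 libraries allow. From LN IL-4+ to lung IFNγ+ cells it differed by -0.19 (exact permutation p = 0.667, where 2 against 2 cannot go below 0.33), and by 0.02 without LN IL-4+ replicate 1. Within the 4 libraries of wide spread, the values were -2.16 in LN IL-4+, -0.80 in lung IL-4+ and -2.25 and -2.02 in lung IFNγ+ cells. The 3 libraries of narrow spread held no lung IFNγ+ library, and the part of the spread in the ratio was not tested.

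**Figure D4:**
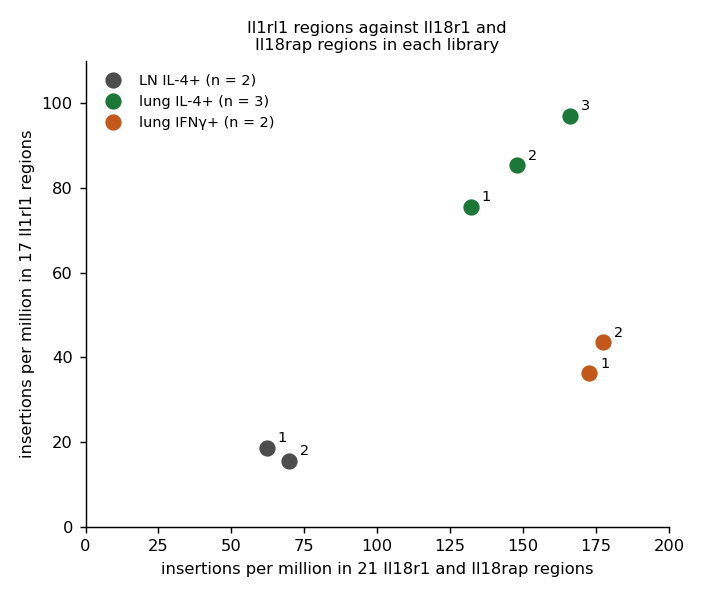
IPM in the 17 regions nearest to Il1rl1 (vertical axis) against those in the 21 regions nearest to Il18r1 or Il18rap (horizontal axis), 1 point per library, numbered by replicate. The lung IFNγ+ libraries have the highest Il18r1 and Il18rap sums with Il1rl1 sums of 36.2 and 43.6, while the lung IL-4+ libraries reach 75.6 to 97.0.

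**Figure D5:**
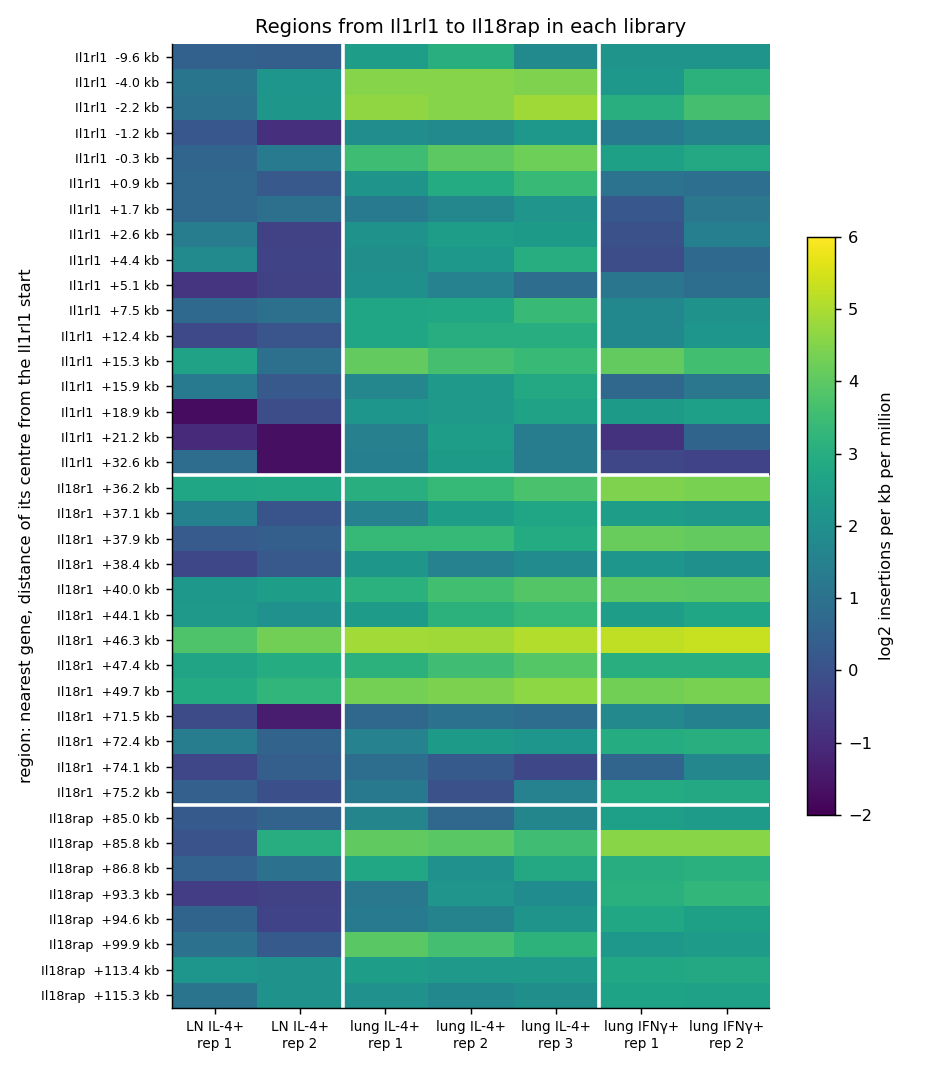
Log2 density (colour, insertions per kb per 1000000) of the 38 member regions from Il1rl1 to Il18rap in each library, ordered along the chromosome and labelled by nearest gene and distance from the Il1rl1 start in kb. The lymph node columns are darker than every lung IL-4+ column at all 17 regions nearest to Il1rl1. There the lung IL-4+ columns are all brighter than both lung IFNγ+ columns at 13 regions. The lung IFNγ+ columns are brightest over 7 of the 8 Il18rap regions.

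Il1r1, the IL-1 receptor, and Il1r2, its decoy, had their lowest sums in both lung IFNγ+ libraries, and neither was called higher in the lung. The Il1r1 sum was 102 and 102 IPM in LN IL-4+, 92.9, 91.4 and 85.3 in lung IL-4+ and 64.6 and 68.9 in lung IFNγ+ cells, without overlap. It was 1.53-fold lower in lung IFNγ+ cells than in those of the lymph node (log2 difference -0.61, SE 0.12, limma adjusted p = 0.0432). That call was lost without LN IL-4+ replicate 1 (limma adjusted p = 0.0701), without lung IL-4+ replicate 1, 2 or 3 (0.0536, 0.132 and 0.0842) and without lung IFNγ+ replicate 1 or 2 (0.537 and 0.379). Between lung IL-4+ and LN IL-4+ cells the difference was -0.18 (SE 0.11, limma adjusted p = 0.501).

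The most accessible Il1r1 region was intronic (chr1:40270113-40271880), with log2 densities of 4.37 and 4.18 in LN IL-4+, 4.03, 4.09 and 4.46 in lung IL-4+ and 3.20 and 3.37 in lung IFNγ+ cells. Both lung IFNγ+ libraries were below all others, and the 1.99-fold lower level against LN IL-4+ cells passed the adjusted p (0.0460 in limma) but not the fold of 3. The promoter region (chr1:40266408-40267032), at the start 40266586, had 3.23 and 3.04, then 2.49, 2.68 and 2.26, then 1.79 and 1.76. It was 2.57-fold lower in lung IFNγ+ cells than in those of the lymph node (limma adjusted p = 0.0476).

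Il1r2 summed to 56.7 and 46.6 IPM in LN IL-4+, 50.4, 58.2 and 52.2 in lung IL-4+ and 34.4 and 34.4 in lung IFNγ+ cells. The IL-4+ libraries of both tissues overlapped, and the lung IFNγ+ libraries lay below them by 0.58 on the log2 scale against LN IL-4+ cells (SE 0.15, limma adjusted p = 0.117) and by 0.64 against lung IL-4+ cells (SE 0.14, adjusted p = 0.161). Its most accessible region (chr1:40084419-40086131) lay at the starts 40084698 and 40084792, and the first annotated start at 40074079 had 0 regions within 1 kb.

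Il1rl2, the IL-36 receptor gene, had its called regions in introns and not at the promoter. Its promoter region (chr1:40324422-40325572) had log2 densities of 3.75 and 3.42 in LN IL-4+, 3.34, 3.16 and 3.15 in lung IL-4+ and 3.32 and 3.33 in lung IFNγ+ cells, with limma adjusted p values of 0.498 and 0.625 against LN IL-4+ cells. The intronic region at chr1:40358765-40359342, toward the end of the gene that faces Il1rl1, had 1.17 and 0.66, then 3.33, 2.97 and 2.65, then 2.01 and 2.62. It rose 4.22-fold in lung IL-4+ cells (limma adjusted p = 0.0190). A second intronic region (chr1:40360317-40361097) rose 4.6-fold (limma adjusted p = 0.0387, called under 6 of 17 alternative fits), from 0.66 and -0.35 to 2.66, 2.3 and 2.1, with 1.24 and 1.21 in lung IFNγ+ cells. The sum of the gene differed by 0.38 (SE 0.19, limma adjusted p = 0.432) between lung IL-4+ and LN IL-4+ cells.

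The called introns of Il1rl2 face the 16 regions between Il1rl2 and Il1rl1, which belong to none of the 6 genes by the 10 kb rule. There 9 (56.2%) were called higher in lung IL-4+ and 4 (25%) in lung IFNγ+ cells than in those of the lymph node. Of all regions, 1.05% and 2.17% were called higher in these contrasts. The region 36.3 kb before the Il1rl1 start (chr1:40392947-40393670) had 2.02 and 3.00 in LN IL-4+, 5.03, 4.89 and 4.63 in lung IL-4+ and 4.98 and 4.96 in lung IFNγ+ cells. It rose 5.07-fold and 5.51-fold (limma adjusted p = 0.00411 and 0.00319). A further region (chr1:40385999-40386630, at -43.3 kb), named after its values were seen, was the 1 region of the window called between the lung populations. It had 1.08 and 0.45 in LN IL-4+, 2.29, 2.49 and 2.81 in lung IL-4+ and 4.57 and 4.21 in lung IFNγ+ cells and was 3.63-fold lower in lung IL-4+ cells (limma adjusted p = 0.0413, called under 11 of 17 alternative fits).

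Over all 70 members, accessibility summed to 243 and 237 IPM in LN IL-4+, 371, 394 and 414 in lung IL-4+ and 315 and 333 in lung IFNγ+ cells, without overlap. The log2 sum differed by 0.71 between lung IL-4+ and LN IL-4+ cells (exact permutation p = 0.1), by 0.43 between lung IFNγ+ cells and the LN IL-4+ population (exact permutation p = 0.33) and by 0.28 between lung IL-4+ and lung IFNγ+ cells (exact permutation p = 0.1), each at the smallest p the design allows. The flanking genes Map4k4, Slc9a4 and Slc9a2 had 0 sums called by limma in any contrast and 1 with an unadjusted p below 0.05.

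The other genes of the pathway, encoded elsewhere, did not pass the test. The list held 27 genes, which were ligands and inhibitors such as Il33, Il18 and Il1rn, the chains Il1rap and Sigirr, and adaptors and kinases such as Myd88 and Irak1 to Irak4. Of these, 21 had a region, and 0 were called in any of 3 contrasts. Of all protein-coding genes, 0.664% and 1.34% were called higher in the lung populations than in the lymph node. At an unadjusted p below 0.05, 2 were higher in each lung population than in LN IL-4+ cells, a level that 4.88% and 6.82% of all genes met. Between the lung populations 2 were higher and 1 lower in lung IL-4+ cells, beside 5.69% and 9.24% of all genes. Il1rn, the IL-1 receptor antagonist gene, was 1 of the 2 higher than in LN IL-4+ cells in each lung population. Its log2 differences were 0.76 in lung IL-4+ (limma adjusted p = 0.249) and 1.02 in lung IFNγ+ cells (limma adjusted p = 0.134). Il1rap, the accessory chain that ST2, IL-1R1 and the IL-36 receptor share, differed by -0.54 between lung IL-4+ and lung IFNγ+ cells (limma adjusted p = 0.328). The median log2 difference of the 21 genes was 0.04, 0.05 and -0.11 in the 3 contrasts, beside -0.09, -0.06 and -0.04 over all protein-coding genes.

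Genes outside the window whose sums followed Il1rl1 most closely over the 7 libraries, among 9657 genes with at least 5 regions, were Src, Ccr8, Icosl, Il2ra and Itgb3, with Pearson r between 0.984 and 0.995. Ccr8 encodes a chemokine receptor of Th2 and Treg cells and Il2ra the IL-2 receptor alpha chain. For Il18r1 they were Igsf8, Riok1, Ccr2, Map2k5 and Stat4, with r between 0.981 and 0.987, and Stat4 encodes the transcription factor activated by IL-12. Il1rl1 and Il18r1 correlated with each other at r = 0.921, on sums that share 7 regions. With 7 libraries in 3 populations these values describe which genes share the order of populations, and 134 genes reached r of at least 0.9 with Il1rl1.

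The 10 motifs were searched over an equal length at the centre of each region, set to that of the shortest regions. Member shares were near those of all regions for GATA and T-box, lower for TCF and ETS and higher for the others. These differences were not tested. The GATA motif was in 13 of 70 members (18.6%) and 19.8% of all regions, and in 5 of the 17 Il1rl1 regions and 3 of the 21 Il18r1 and Il18rap regions. The bZIP motif was in 17 of 70 members (24.3%) and 16.0% of all regions, and RUNX in 14 (20%) and 13.6%. TCF was in 2 members (2.86%) and 7.14% of all regions, and ETS in 1 (1.43%) and 4.04%. The STAT6 motif was in 6 of the 17 Il1rl1 regions and 2 of the 21 Il18r1 and Il18rap regions, beside 10.7% of all regions. T-box was in 2 of 17 and 2 of 21, beside 10.1%. NFAT was in 1 of 17 and 5 of 21, beside 9.58%. STAT was in 1 of 17 and 4 of 21, beside 12.3%. On the same sides bZIP was in 4 and 7 regions and RUNX in 4 and 6. NFkB, TCF and ETS were in 0 of 17 and in 1, 1 and 0 of 21. The median GC content of the windows was 44.3% in members and 47.1% in all regions. These counts describe letters in the windows and not bound sites.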

How the data were processed

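ATAC-seq values of 7 libraries were taken from the table of log2 values that the authors deposited. The authors mapped reads with Bowtie2 2.3.2 to GRCm38, called peaks with MACS2 2.1.1, counted insertions and normalized them with voom of limma 3.38.3, giving log2 insertions per kb per 1000000. The sorted values coincide between libraries once region length is removed, so strong differences in overall signal are not kept. Rebuilt counts came from tied values within a library and are lower bounds.

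Regions were assigned to genes with GENCODE M21 by overlap with the gene and 10 kb on each side. All 113820 regions were fitted in limma 3.58.1 (R 4.3.3) with a mean per population and a variance trend, and locus sums likewise over 17021 protein-coding genes. Regions were called at adjusted p below 0.05 and a fold of at least 3, genes at adjusted p below 0.05. The procedure was tested on simulated data. Single values were compared by exact permutation in Python 3.11.15. Alternatives changed the pseudocount, filter, scaling, block, weights, threshold, flanks and libraries. Named regions were the promoter region and the most accessible region of each gene and the 3 most changed called regions per contrast and direction. Other regions were named after their values were seen. Members, lists and tests were chosen with earlier results of these data known.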

Additional observations from a re-analysis of the deposited data

How the results depend on the processing

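The direction of the 6 differences of cluster sums and of the Il1rl1 ratio held under every alternative tried except for the ratio in lung IFNγ+ cells minus that in the lymph node, which was -0.19 and ranged from -0.401 to 0.024 when each library was left out in turn, with 0.024 without LN IL-4+ replicate 1. Calls were less stable than directions. The numbers of members called higher than in LN IL-4+ cells, 16 and 16, became 0 and 2 with a replicate block, 8 and 6 with 2 populations at a time, 8 and 9 with voom on rebuilt counts and 6 and 3 with treat against a fold of 1.5, and 8 in lung IFNγ+ cells with a pseudocount of 1. They ranged from 5 to 12 and from 1 to 16 when a library was left out. The 3 and 3 genes called higher became 0 and 0 with the replicate block, 2 populations at a time or the mean of log2 densities, and ranged from 0 to 3 without a library. The 1 gene called lower in lung IFNγ+ cells became 0 under the same settings and 2 with the spread class covariate, and ranged from 0 to 2. Members called lower in lung IFNγ+ cells, 0, became 3 with voom and 2 with no minimum fold. Between the lung populations, the 0 members called higher in lung IL-4+ cells became 1 with a pseudocount of 1 or 2 populations at a time, 2 with the spread class covariate, 3 with voom and 6 with array weights, and ranged from 0 to 1. The 0 called lower became 2 with array weights and 1 with 25 kb on each side, and the 0 genes called higher became 2 with the spread class covariate. The Il1rl2 sum, -0.08 in lung IFNγ+ cells minus the lymph node, became 0.93 with 25 kb on each side, which adds regions between Il1rl2 and Il1rl1. Leaving out a library of the population outside a contrast changed the shared spread and not the log2 differences. For the other changes the cause was not tested. Whether same-numbered lymph node and lung IL-4+ libraries share a mouse is not given, so the block was not used as the main fit. Deviations of same-numbered libraries from the population means correlated at -0.54, -0.30, 0.06, 0.06, -0.02 and -0.01 in the 6 pairs. In a population of 2 libraries the 2 deviations mirror each other, so these values cannot show whether libraries were paired. Depth limits the folds of regions closed in the lymph node, where an Il1rl1 region had as few as 2 insertions in LN IL-4+ replicate 2.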

Other observations

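Within the cluster, 1 region between Il1r2 and Il1r1 that belongs to neither gene (chr1:40189993-40190436) went the other way from the Il1rl1 side, and it was named after its values were seen. Its log2 density was 4.23 and 4.53 in LN IL-4+, 2.76, 2.68 and 2.82 in lung IL-4+ and 2.40 and 3.00 in lung IFNγ+ cells. The lymph node libraries were above all lung libraries, and limma called it lower in both lung populations, 3.08-fold (adjusted p = 0.0130) and 3.20-fold (adjusted p = 0.0122), under 11 of 17 alternative fits each. It lay over 25 kb from both genes. Among the 9 regions between Map4k4 and Il1r2, 0 were called by limma in any contrast, while 4 were higher in lung IL-4+ than in LN IL-4+ cells at an unadjusted p below 0.05, beside 8.82% of all regions.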
